A study of Mus musculus with 17 samples.

Results

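The genes Hmgcs1, Idi1, Fdps, Sqle, Lss, Cyp51, Insig1 and Srebf2 make cholesterol or control its synthesis, and their signals were read here in RNA of the mouse colon on 17 one-colour arrays. The 8 genes were found by the gene name in the array files. 14 probes carry these names, and for each gene the probe with the highest mean in the log2 table deposited by the authors was taken, which gave 8 of the 38703 probes tested and 8 of the 25029 genes they stand for. All 8 probes were well above the background on all 17 arrays. The mice were males of the C57Bl6/J background, either wild-type (WT) or Pxr-/-, that is, without a working gene for the pregnane X receptor (PXR), a nuclear receptor that senses foreign compounds. They received pregnenolone 16α-carbonitrile (PCN), a ligand of rodent PXR, by intraperitoneal injection of 100 mg/kg each day over 4 days in corn oil, or the oil alone (CONT), and were killed 6 h after the last injection. The labels call the mice fed at that time, and the study's text calls their state at that hour semi-fasted. Of the 4 groups, Pxr-/- CONT had 5 arrays and WT CONT, WT PCN and Pxr-/- PCN had 4 each. The WT mice were bought at an age of 6 weeks and the Pxr-/- mice, whose age the labels do not state apart, came from the study's own colony. All had 2 weeks to acclimatize before treatment, and genotype and origin of the mice cannot be told apart. Nothing in the labels says which arrays come from separate mice, and p-values measure the spread between these arrays.

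Cells make cholesterol from acetyl-CoA through mevalonate, isoprenoid diphosphates and squalene, the first sterol being lanosterol. The transcription factor SREBP-2, the product of Srebf2, switches on the genes of nearly the whole route when sterols in the endoplasmic reticulum run low, and Insig1 codes for a protein that holds the SREBP precursor there when sterols are plentiful. Insig1 and Srebf2 are themselves targets of SREBP-2, so that enzymes and regulators are known to move as a group. The gut epithelium renews itself quickly, makes cholesterol for its membranes and is a main site of cholesterol synthesis beside the liver.

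SREBP-2 binds sterol regulatory elements in promoters, next to sites of the factor NF-Y (the CCAAT box) and of Sp1 (the GC box). The promoter table from RefSeq (build GRCm38.p6) holds the 250 bases before and 50 after a gene's start for 6 of the 8 genes. Both strands of each window were searched for a core of the sterol regulatory element, TCACNCCAC, for CCAAT and for GGGCGG. The CCAAT box was found in 6 of 6 windows of these genes and in 37.4% of the 32851 windows of the table, and GGGCGG in 6 of 6 and in 35.7%. Of 12 windows of other enzymes of the route, 11 held CCAAT and 11 held GGGCGG. The core was found in 1 of the 6, Hmgcs1, at 137 bases before the start, in 0 of the 12 other enzymes and in 1.24% of all windows. The stretches below, which end before the start of the gene, are shown because all 6 windows hold these short motifs, at differing distances from the start, and the choice of the genes did not use sequence. Each is written 5′ to 3′ on the strand of its gene with CCAAT or its complement ATTGG in capitals, and for Hmgcs1 also the core element. They lie at chr13:119690101-119690350 (Hmgcs1, plus strand), chr13:8885561-8885605 (Idi1, plus), chr10:76531513-76531577 (Lss, plus), chr5:4104698-4104756 (Cyp51, minus), chr5:28071166-28071230 (Insig1, plus) and chr15:82147104-82147168 (Srebf2, plus).
Hmgcs1: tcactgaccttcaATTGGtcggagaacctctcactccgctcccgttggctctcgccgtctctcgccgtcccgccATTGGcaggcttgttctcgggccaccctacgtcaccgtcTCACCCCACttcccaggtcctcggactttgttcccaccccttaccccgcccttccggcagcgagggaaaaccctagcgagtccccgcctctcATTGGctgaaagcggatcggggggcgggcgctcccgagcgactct
Idi1: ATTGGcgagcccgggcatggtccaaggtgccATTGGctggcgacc
Lss: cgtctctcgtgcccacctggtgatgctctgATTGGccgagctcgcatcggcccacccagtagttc
Cyp51: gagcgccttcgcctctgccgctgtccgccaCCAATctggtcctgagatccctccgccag
Insig1: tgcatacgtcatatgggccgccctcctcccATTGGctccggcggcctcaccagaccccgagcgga
Srebf2: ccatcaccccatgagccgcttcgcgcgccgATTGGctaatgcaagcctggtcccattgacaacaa
In the printed stretches, the CCAAT box nearest to the start lies 14 bases before it in Idi1, 29 in Cyp51, 45 in Hmgcs1, 62 in Lss, 135 in Srebf2 and 216 in Insig1. The window of Hmgcs1 holds a further CCAAT box after the start, at position 10, which is not printed.

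The arrays were of like quality, with 62.7% to 71.0% of probes well above the background and 0 saturated spots. The 7 colonocyte markers and the 6 goblet cell markers, Car1, Krt20 and Muc2 among them, were well above the background on all 17 arrays, as the label of colon requires. The mean log2 signal of 6 pancreatic acinar markers reached 17.65 in WT CONT 4, 15.34 in WT PCN 3, 15.27 in Pxr-/- CONT 2 and 10.56 in WT PCN 1, against 5.53 to 5.86 on the other 13 arrays. That of 6 liver markers reached 12.16 in WT CONT 5, 9.77 in WT PCN 1 and 9.45 in WT PCN 2, against 6.76 to 7.90 on the other 14. The probe of Nr1i2, the gene that codes for PXR, was above the background on all arrays, with log2 signals of 11.97 to 12.31 in WT CONT, 11.10 to 12.44 in WT PCN, 10.39 to 11.61 in Pxr-/- CONT and 10.95 to 11.93 in Pxr-/- PCN. The place of the probe relative to the deleted part is not given in the sources used here, so it does not check the labels. In 2 pairs of arrays with different labels, the arrays were nearly identical over all probes. The log2 differences between Pxr-/- PCN 2 and WT PCN 4 had an SD of 0.172, and those between WT PCN 3 and Pxr-/- CONT 2 an SD of 0.198, against 0.297 to 0.616 in the other 134 pairs. Over the 8 genes the arrays of a pair differed by at most 0.155. The comparisons of the 8 genes are therefore given with all 17 arrays and without these 4.

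Signals of the cholesterol synthesis genes were lowest in the colon of Pxr-/- mice given PCN. In all 8 genes the mean of Pxr-/- PCN was the lowest of the 4 group means, against 20.4% of all probes, and in 7 of 8, all but Insig1, that of Pxr-/- CONT was the highest, against 27.1%. Without the 4 near-identical arrays these were 8 of 8 (20.9%) and 6 of 8 (27.8%). Against Pxr-/- CONT, log2 signals in Pxr-/- PCN were lower by 0.51 to 0.69 in 7 genes and by 0.15 in Srebf2, where 48% of all probes were lower. No single gene passed the threshold used here (false discovery rate, FDR, of at most 0.05 over all probes and a fold change over 1.5): 0 of 8 were called, where 0.00517% of all probes were called, and the smallest adjusted p of the 8 in limma was 0.206. At an unadjusted limma p under 0.05, 7 of 8 were lower and 0 were higher, against 3.95% and 3.4% of all probes. Lower by over 0.5 on the log2 scale were 7 of 8, against 1.77% of all probes. The 8 genes were chosen with earlier results of these data known, and they varied together across arrays. These counts are thus neither a separate test nor counts of 8 separate results. The colon was measured as a whole tissue, where fewer cells of a type and less RNA per cell cannot be told apart.

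**Figure D1:**
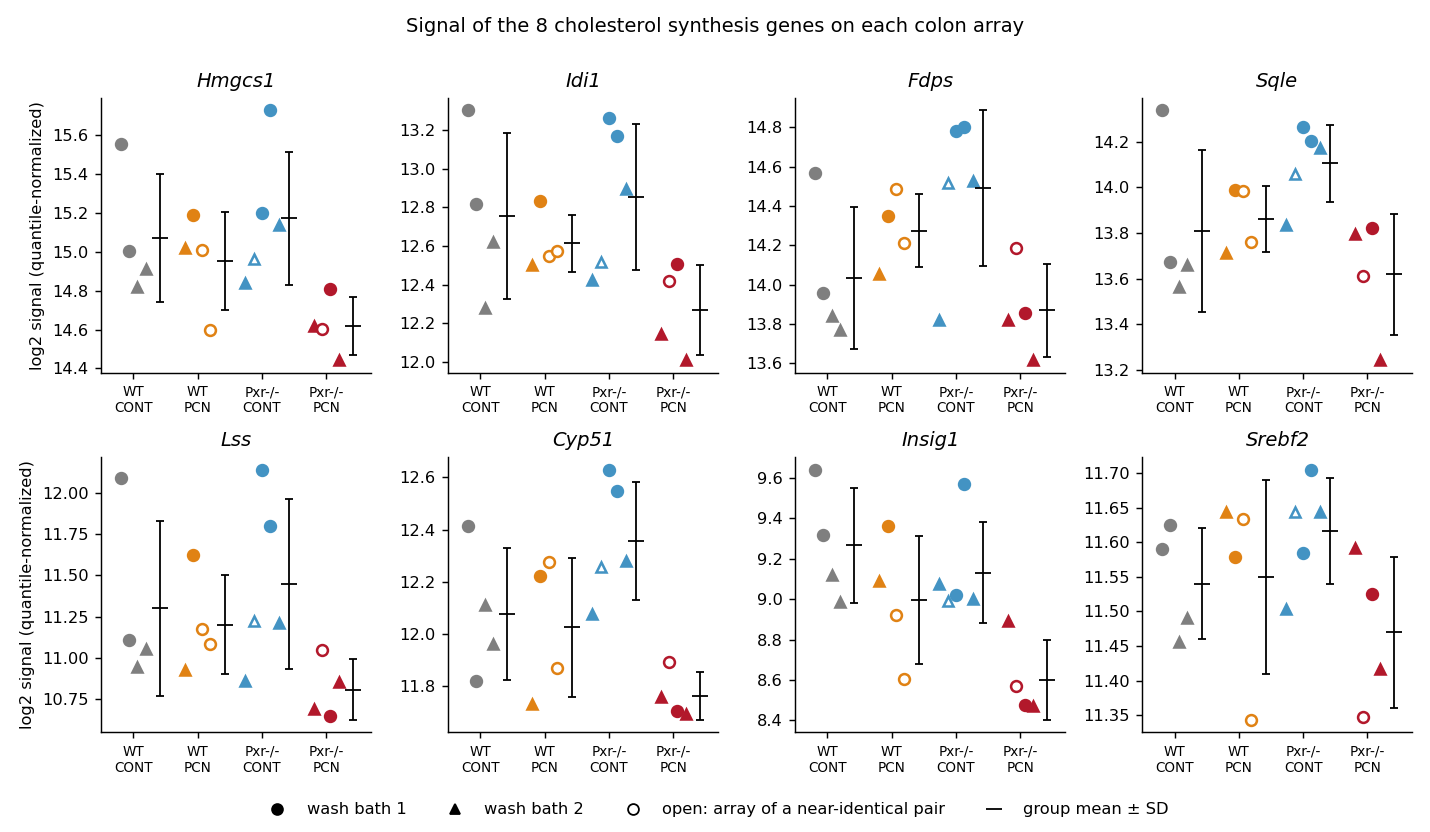
Quantile-normalized log2 signal (y axis, a separate scale for each gene) of the 8 cholesterol synthesis genes on each of the 17 arrays by group (x axis), with circles for wash bath 1, triangles for wash bath 2, open symbols for the 4 arrays of near-identical pairs and bars for the group mean ± SD. The Pxr-/- PCN arrays (dark red) have the lowest mean in all 8 panels, and WT CONT 2 and Pxr-/- CONT 4 are among the highest arrays in most.

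Hmgcs1 codes for HMG-CoA synthase, which makes the precursor of mevalonate. The mean log2 signal of the 5 Pxr-/- CONT arrays was 15.17 ± 0.34 (SD, n = 5), that of Pxr-/- PCN 14.62 ± 0.15 (SD, n = 4), that of WT CONT 15.07 ± 0.33 (SD, n = 4) and that of WT PCN 14.95 ± 0.25 (SD, n = 4). All 4 Pxr-/- PCN arrays (14.44 to 14.81) lay below all 5 Pxr-/- CONT arrays (14.84 to 15.73), with a log2 difference of -0.58 (95% confidence interval -0.92 to -0.24, limma adjusted p = 0.403).

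Idi1 codes for the isomerase that turns isopentenyl diphosphate into the starter unit of all isoprenoids. Its log2 signals were 13.30, 12.82, 12.28 and 12.62 in WT CONT 2, 3, 4 and 5, and 12.50, 12.83, 12.55 and 12.57 in WT PCN 1 to 4. In Pxr-/- CONT 1 to 5 they were 12.43, 12.51, 13.26, 13.17 and 12.89, and in Pxr-/- PCN 1 to 4 they were 12.14, 12.42, 12.51 and 12.01. WT CONT 2 was the highest array and Pxr-/- PCN 4 the lowest, and the Pxr-/- groups overlapped, since Pxr-/- PCN 3 was above Pxr-/- CONT 1. The log2 difference of the Pxr-/- groups was -0.63 (95% confidence interval -0.91 to -0.35, limma adjusted p = 0.235).

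Fdps codes for farnesyl diphosphate synthase, which builds the 15-carbon unit from which squalene and prenyl groups are made. Its log2 signals were 14.56, 13.96, 13.84 and 13.77 in WT CONT 2, 3, 4 and 5, and 14.05, 14.35, 14.48 and 14.21 in WT PCN 1 to 4. In Pxr-/- CONT 1 to 5 they were 13.82, 14.51, 14.78, 14.80 and 14.53, and in Pxr-/- PCN 1 to 4 they were 13.82, 14.19, 13.86 and 13.62. Pxr-/- CONT 1 lay among the Pxr-/- PCN arrays, while the other 4 Pxr-/- CONT arrays were above all of them. The log2 difference was -0.66 (95% confidence interval -0.98 to -0.34, limma adjusted p = 0.266), a 1.58-fold lower signal in Pxr-/- PCN.

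Sqle codes for squalene epoxidase, the first oxygen-using step and a control point of the late route. Its log2 signals were 14.34, 13.67, 13.56 and 13.66 in WT CONT 2, 3, 4 and 5, and 13.71, 13.99, 13.98 and 13.76 in WT PCN 1 to 4. In Pxr-/- CONT 1 to 5 they were 13.84, 14.06, 14.27, 14.20 and 14.17, and in Pxr-/- PCN 1 to 4 they were 13.80, 13.61, 13.82 and 13.24. The Pxr-/- groups did not overlap, although Pxr-/- PCN 3 and Pxr-/- CONT 1 were close, and their log2 difference was -0.51 (95% confidence interval -0.80 to -0.23, limma adjusted p = 0.400).

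Lss codes for lanosterol synthase, which closes the sterol rings. Its log2 signals were 12.09, 11.11, 10.95 and 11.05 in WT CONT 2, 3, 4 and 5, and 10.93, 11.63, 11.17 and 11.08 in WT PCN 1 to 4. In Pxr-/- CONT 1 to 5 they were 10.86, 11.22, 12.14, 11.80 and 11.21, and in Pxr-/- PCN 1 to 4 they were 10.69, 11.05, 10.65 and 10.85. Pxr-/- CONT 3 and 4 and WT CONT 2 stood above all other arrays, and the Pxr-/- groups overlapped at Pxr-/- CONT 1. Its log2 difference of the Pxr-/- groups was the largest of the 8 genes, -0.69 (95% confidence interval -1.12 to -0.26, limma adjusted p = 0.449), and so was the spread within Pxr-/- CONT (SD 0.51, n = 5).

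Cyp51 codes for the enzyme that takes a methyl group off lanosterol. The 4 Pxr-/- PCN arrays lay close together, at 11.69 to 11.89, and all below the 5 Pxr-/- CONT arrays at 12.08 to 12.63. The mean of Pxr-/- PCN was 11.76 ± 0.092 (SD, n = 4) and that of Pxr-/- CONT 12.36 ± 0.23 (SD, n = 5). The log2 difference of -0.62 (95% confidence interval -0.88 to -0.35) had the smallest adjusted p of the 8 genes, 0.206 in limma. The means of WT CONT, 12.08 ± 0.25 (SD, n = 4), and of WT PCN, 12.03 ± 0.27 (SD, n = 4), lay in between.

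The log2 signals of Insig1 were 9.64, 9.32, 9.12 and 8.98 in WT CONT 2, 3, 4 and 5, and 9.09, 9.36, 8.92 and 8.60 in WT PCN 1 to 4. In Pxr-/- CONT 1 to 5 they were 9.08, 8.99, 9.02, 9.57 and 8.999, and in Pxr-/- PCN 1 to 4 they were 8.89, 8.57, 8.48 and 8.47. All Pxr-/- PCN arrays were below all Pxr-/- CONT arrays and below all WT CONT arrays, and the log2 difference of the Pxr-/- groups was -0.54 (95% confidence interval -0.90 to -0.19, limma adjusted p = 0.486). Srebf2 varied least, with log2 signals of 11.34 to 11.70 over all 17 arrays. Its log2 difference was -0.15 (95% confidence interval -0.31 to 0.020, limma adjusted p = 0.735), and its Pxr-/- groups overlapped.

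In the exact two-sided permutation test of the group means, which leaves the wash bath out, p was 0.0159 for Hmgcs1, Sqle, Cyp51 and Insig1, the smallest that 4 against 5 arrays allow. It was 0.0317 for Idi1 and Lss, 0.0476 for Fdps and 0.0794 for Srebf2. These p-values are unadjusted, and of the 32 such tests run over the 8 genes and 4 pairwise comparisons, 7 were under 0.05, those of this comparison. For 4 of the 8 genes all Pxr-/- PCN arrays were below all Pxr-/- CONT arrays, against 1.42% of all probes. Without the 4 near-identical arrays, 3 Pxr-/- PCN and 4 Pxr-/- CONT arrays were left and the log2 differences were -0.45 for Sqle, -0.52 for Insig1, -0.54 for Hmgcs1, -0.62 for Cyp51, -0.63 for Idi1, -0.65 for Fdps, -0.68 for Lss and -0.088 for Srebf2. Again 0 of 8 were called (0.0517% of all probes, limma), 7 of 8 were lower at an unadjusted p under 0.05 (3.63% of all probes), and for 5 of 8 the groups did not overlap (3.27%). The smallest exact p that 3 against 4 arrays allow is 0.0571, so this test could not go under 0.05.

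The arrays were washed in 2 baths, and the signals of these genes differed between them. In the fit, log2 signals in bath 2 were below those in bath 1 by 0.51 for Lss, 0.47 for Idi1, 0.40 for Fdps, 0.28 for Hmgcs1, 0.25 for Sqle and 0.23 for Cyp51, with adjusted p of 0.167 to 0.372 in limma, while Insig1 (-0.13) and Srebf2 (-0.0075) differed less. Each bath held 2 Pxr-/- PCN arrays, with 2 Pxr-/- CONT arrays in bath 1 and 3 in bath 2. Within bath 1 the difference of the means of Pxr-/- PCN and Pxr-/- CONT ran from -0.52 for Sqle to -1.12 for Lss among the 7 genes other than Srebf2 (-0.21), and within bath 2 from -0.33 for Lss to -0.57 for Fdps, with -0.093 for Srebf2. For 7 of 8 genes, all but Srebf2, the Pxr-/- PCN arrays were below all Pxr-/- CONT arrays within each bath, against 2.45% of all probes. Lss differed most between the baths.

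Further probes of these genes gave an uneven picture. In Pxr-/- mice the second probe of Cyp51 (log2 difference -0.56) and both other probes of Lss (-0.71 and -0.60) lay near the chosen probes. The second probe of Hmgcs1, annotated to another transcript and with a mean log2 signal of 8.30 in the deposited table, was at -0.20, and that of Srebf2 at 0.060. Their adjusted p in limma were 0.355 to 0.959. In WT mice the other probes of Lss were at -0.39 and -0.44 and the second probe of Hmgcs1 at -0.47. The chosen probes were at -0.22 and -0.19. The adjusted p of each of these other probes was 0.956 in limma. The Lss probe at -0.44 (95% confidence interval -0.86 to -0.021) was lower at an unadjusted limma p of 0.041. At an unadjusted p under 0.05, 2.17% of all probes were lower in WT mice. The second probes of Cyp51 and Srebf2 were at -0.014 and -0.088. The WT difference of the second Hmgcs1 probe was thus the larger of its differences with PCN. A second probe of Sqle was above the background on 0 arrays and was not tested. The files place the chosen probes (build mm9) at chr5:4082122-4082181 for Cyp51, chr3:88897549-88897608 for Fdps, chr13_random:114793-114852 for Hmgcs1, chr13:8891524-8891583 for Idi1, chr5:28404246-28404305 for Insig1, chr10:76016592-76016651 for Lss, chr15:59162688-59162747 for Sqle and chr15:82035495-82035554 for Srebf2.

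In WT mice no difference between PCN and CONT was established for these genes. The log2 differences of WT PCN and WT CONT were -0.30 for Insig1, -0.26 for Idi1, -0.22 for Lss, -0.19 for Hmgcs1, -0.11 for Cyp51, -0.010 for Sqle, 0.0076 for Srebf2 and 0.14 for Fdps, with adjusted p of 0.956 to 0.998 in limma. Of the 8 genes 0 were called, as were 0% of all probes in limma, 0 were past an unadjusted p under 0.05 in either direction (2.17% of all probes were lower at this level and 2.49% higher), and the groups overlapped in all 8 (1.29% of all probes lay wholly lower and 1.36% wholly higher). The 95% confidence intervals reached from -0.69 to 0.24 for Lss and from -0.17 to 0.19 for Srebf2, the widest and the narrowest. Without the near-identical arrays, 2 WT PCN arrays were left, 0 of 8 were called (0.0491% of all probes in limma), and the values came closer to 0 or turned for 6 genes, to -0.041 for Insig1, -0.089 for Idi1, -0.023 for Lss, 0.033 for Hmgcs1, -0.10 for Cyp51 and 0.042 for Sqle, with Srebf2 at 0.071 and Fdps at 0.17. The 2 WT PCN arrays left, WT PCN 1 and WT PCN 2, came from different wash baths. Both are among the arrays with high liver marker signal (9.77 and 9.45), and WT PCN 1 also had pancreatic marker signal (10.56). WT CONT 2 was the highest of the 4 WT CONT arrays in 7 genes, and WT PCN 4 or WT PCN 1 the lowest of the WT PCN arrays in all 8.

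Without PCN, 7 of the 8 genes were higher in Pxr-/- than in WT colon in the fit (47.9% of all probes were lower), and none passed the threshold. The log2 differences of Pxr-/- CONT and WT CONT were 0.50 for Fdps (95% confidence interval 0.18 to 0.82, limma adjusted p = 0.251), 0.32 for Sqle (0.036 to 0.61, limma adjusted p = 0.355) and 0.30 for Cyp51 (0.040 to 0.57, limma adjusted p = 0.346). These 3 were past an unadjusted p under 0.05, against 6.17% of all probes that were higher and 6.52% that were lower at this level, and 0 of 8 were called (0% of all probes in limma). The other genes lay between -0.12 (Insig1) and 0.20 (Lss). The groups overlapped in all 8 genes, where 2.38% of all probes lay wholly higher and 3.01% wholly lower. For Sqle all 5 Pxr-/- CONT arrays were above the mean of WT CONT, but WT CONT 2 was higher than any of them. The exact two-sided permutation p of the 8 genes was 0.143 to 0.714. Without the near-identical arrays the difference of Fdps was 0.45, that of Sqle 0.31 and that of Cyp51 0.31, and 1 of 8 genes, Fdps, was past an unadjusted p under 0.05 (4.49% of all probes), with 0 of 8 called (0% of all probes in limma).

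The probes of a gene did not all give this direction. Between genotypes without PCN the second probe of Hmgcs1 was at -0.67 and that of Srebf2 at -0.31, against 0.13 and 0.077 for the chosen probes. Both second probes were lower at an unadjusted limma p under 0.05 (limma adjusted p = 0.365 and 0.352). The other probes of Lss were at -0.12 and -0.026, against 0.20 for the chosen probe. The second probe of Cyp51 was at 0.40, higher at this unadjusted level (limma adjusted p = 0.288).

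With PCN all 8 genes had the lower mean in Pxr-/- colon (46.8% of all probes), Insig1 being the gene that was also lower without PCN. The log2 differences of Pxr-/- PCN and WT PCN were -0.36 for Insig1, -0.30 for Fdps, -0.27 for Lss and Hmgcs1, -0.23 for Idi1, -0.20 for Cyp51, -0.18 for Sqle and -0.078 for Srebf2. Every adjusted p was 1.00 to 3 digits in limma, 0 of 8 genes were called (0% of all probes), and 0 of 8 were past an unadjusted p under 0.05 (1.85% of all probes were lower at this level). The groups overlapped in all 8 genes (0.724% of all probes lay wholly lower and 0.755% wholly higher), and WT PCN 4 and Pxr-/- PCN 2 are a near-identical pair. Without the 4 arrays, with 3 against 2 left, the differences were -0.58 for Insig1, -0.45 for Lss, -0.42 for Hmgcs1, -0.37 for Fdps, -0.36 for Idi1, -0.22 for Cyp51, -0.18 for Sqle and -0.090 for Srebf2, with 0 of 8 called (0.0207% of all probes in limma) and 1 of 8, Insig1, at an unadjusted p under 0.05 (4.36%). For 4 of 8 genes, Hmgcs1, Lss, Fdps and Insig1, the Pxr-/- PCN arrays then lay below both WT PCN arrays, against 9.38% of all probes. These 2 arrays, WT PCN 1 and WT PCN 2, are among those with high liver marker signal.

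Whether the difference made by PCN depended on the genotype was tested as an interaction, the log2 difference with PCN in Pxr-/- less that in WT. For the chosen probes it was below 0 in all 8 genes, against 48.7% of all probes. The values were -0.80 for Fdps (95% confidence interval -1.26 to -0.34), -0.51 for Cyp51, -0.50 for Sqle, -0.47 for Lss, -0.40 for Hmgcs1, -0.37 for Idi1, -0.24 for Insig1 and -0.15 for Srebf2. The adjusted p in limma were 0.848 to 0.869, and 0 of 8 genes were called (0% of all probes). At an unadjusted p under 0.05 were 3 of 8, Fdps, Cyp51 and Sqle, against 2.95% of all probes below 0 at this level. Without the near-identical arrays the value of Fdps was -0.82, that of Lss -0.66, of Hmgcs1 -0.57, of Idi1 -0.55, of Cyp51 -0.52, of Sqle -0.49, of Insig1 -0.48 and of Srebf2 -0.16, with adjusted p of 1.00 to 3 digits, 0 of 8 called (0.00258% of all probes in limma) and 4 of 8 at an unadjusted p under 0.05 (1.84%). The second probes of Hmgcs1 and Srebf2 were above 0, at 0.27 and 0.15, the other probes of Lss were at -0.31 and -0.16 and that of Cyp51 at -0.54. With the mean of all its probes Hmgcs1 was at -0.062 and Srebf2 at -0.0032. A larger difference in Pxr-/- than in WT mice was thus not established for any single gene. The pairwise comparisons share groups of arrays, and their values are not independent of each other.

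**Figure D2:**
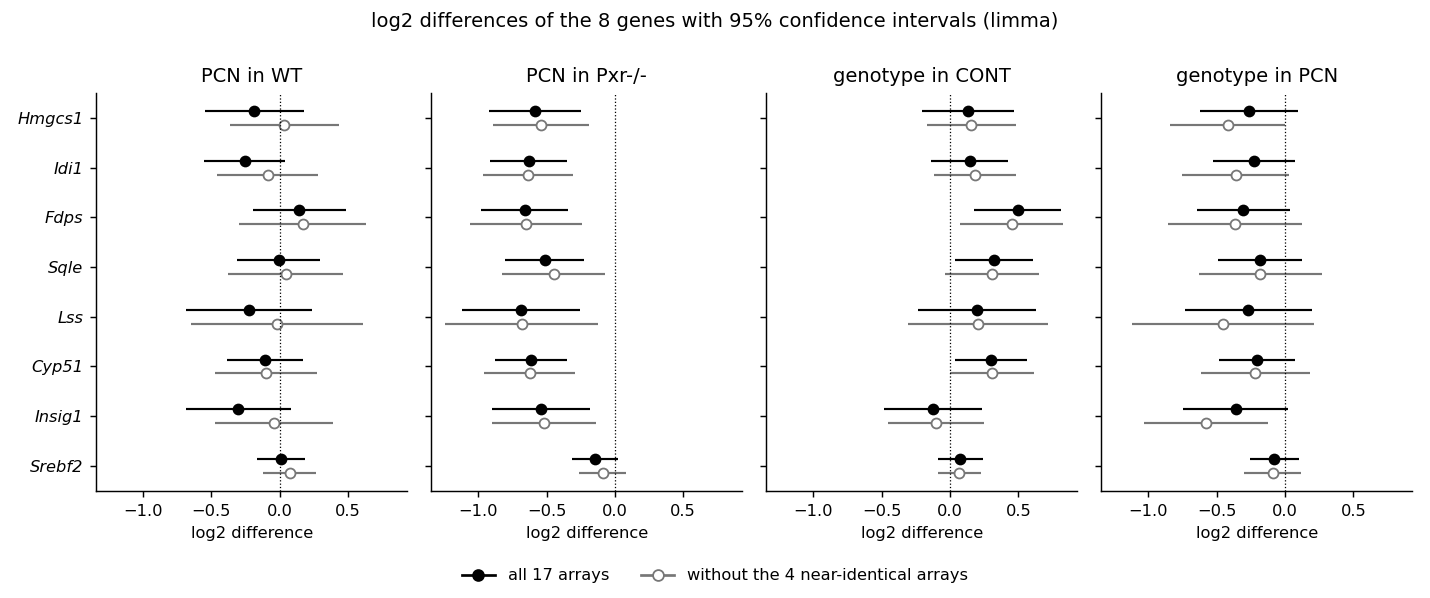
Log2 differences (x axis) of the 8 genes (y axis) with 95% confidence intervals from limma in the 4 pairwise comparisons, as filled points for all 17 arrays and open points without the 4 near-identical arrays. In the Pxr-/- mice the intervals of 7 genes lie below 0 with and without these arrays (-0.51 to -0.69 with all arrays), while in WT mice all intervals include 0. The intervals are not adjusted for the number of probes. With all arrays, the interaction of PCN and genotype was called for 0 of 8 genes (limma adjusted p of 0.848 to 0.869).

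The other enzymes of the route were next compared, since the 8 genes are only part of it. Of a list of 15 further enzymes, 14 were on the array and tested. In Pxr-/- mice all 14 had a lower mean with PCN, with a median log2 difference of -0.38 against 0.0062 over all probes and -0.60 in the 8 genes. Of the 14, 0 were called (0.00517% of all probes), and 10 were lower at an unadjusted p under 0.05 (3.95%). The mevalonate diphosphate decarboxylase gene Mvd (-0.58, limma adjusted p = 0.418) and the squalene synthase gene Fdft1 (-0.48, limma adjusted p = 0.346) had the largest differences. Mvd was at 11.32 to 12.00 in Pxr-/- CONT and at 10.82 to 11.24 in Pxr-/- PCN, and Fdft1 at 13.55 to 14.03 and 13.16 to 13.33. The groups did not overlap in either gene, where 1.42% of all probes lay wholly lower. Both genes were picked for the size of this difference, so their separation is no separate result.

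In WT mice the median of the 14 enzymes with PCN was -0.049 (-0.00013 over all probes), with 10 lower and 4 higher. The largest values were those of Mvd (-0.30) and of Dhcr7, which codes for an enzyme of the last steps (-0.29), both with an adjusted p of 0.956 in limma. Between genotypes without PCN the median was 0.19, with 11 of 14 higher in Pxr-/- colon, among them Tm7sf2, the gene of a sterol reductase (0.28, limma adjusted p = 0.390). Without the near-identical arrays the median with PCN in Pxr-/- mice was -0.34, with 14 of 14 lower and 8 at an unadjusted p under 0.05 (3.63% of all probes), and in WT mice 0.0072.

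Genes around the route were described by their lists. The 8 genes for SREBP processing and other SREBP-2 targets had a median log2 difference of -0.043 with PCN in Pxr-/- mice. Below 0 were 7 of 8 (48% of all probes), and 1 of 8 was lower at an unadjusted p under 0.05 (3.95% of all probes). Tmem97, a gene of sterol transport, was at -0.38 (limma adjusted p = 0.741), while Scap, Mbtps1, Mbtps2 and Insig2 lay between -0.049 and -0.014. In WT mice Npc1l1, which codes for the sterol importer of the small intestine, was at 0.10. Npc1l1 was above the background on 9 of 17 arrays. Between genotypes without PCN, Tmem97 was at 0.39 and Npc1l1 at 0.24.

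The 8 LXR and cholesterol efflux genes, some of which are known to be switched on when sterols are plentiful, had a median of 0.27 with PCN in Pxr-/- mice. Above 0 were 8 of 8, where 48% of all probes were below 0. At an unadjusted p under 0.05, 1 of 8 was higher, against 3.4% of all probes. This gene was Nr1h3 (0.55, limma adjusted p = 0.647), which codes for LXRα. Abcg5, a subunit of the sterol exporter at the apical membrane, was at 1.16 (limma adjusted p = 0.847) with a wide spread, 6.76 to 9.61 in Pxr-/- CONT and 7.97 to 10.55 in Pxr-/- PCN. Between genotypes without PCN, Nr1h3 was at -0.59 and Abcg5 at -1.53, and the median of the list was -0.41 with 7 of 8 below 0. In WT mice with PCN the median was -0.097, the largest values being those of Mylip (-0.29) and Abcg1 (-0.24). The list medians thus had the opposite sign to those of the 8 cholesterol synthesis genes with PCN in Pxr-/- mice (0.27 and -0.60) and between genotypes (-0.41 and 0.17), and whether the lists differ was not tested. Of the 9 fatty acid synthesis genes, all were below 0 with PCN in Pxr-/- mice (48% of all probes), with a median of -0.18. At an unadjusted p under 0.05, 1 of 9 was lower (3.95% of all probes). The malic enzyme gene Me1 was at -0.68 and Elovl6, a fatty acid elongase, at -0.31. In WT mice Me1 was at 0.68 and Elovl6 at 0.50 with a median of -0.079, and between genotypes without PCN Me1 was at 0.86 and the desaturase gene Scd1 at -0.43. Without the 4 near-identical arrays the medians with PCN in Pxr-/- mice were -0.077 for SREBP processing, 0.25 for LXR and efflux and -0.22 for fatty acid synthesis, while in WT mice those of the LXR and fatty acid lists turned, to 0.079 and 0.083. None of the genes in these 3 lists was called in any comparison.

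**Figure D3:**
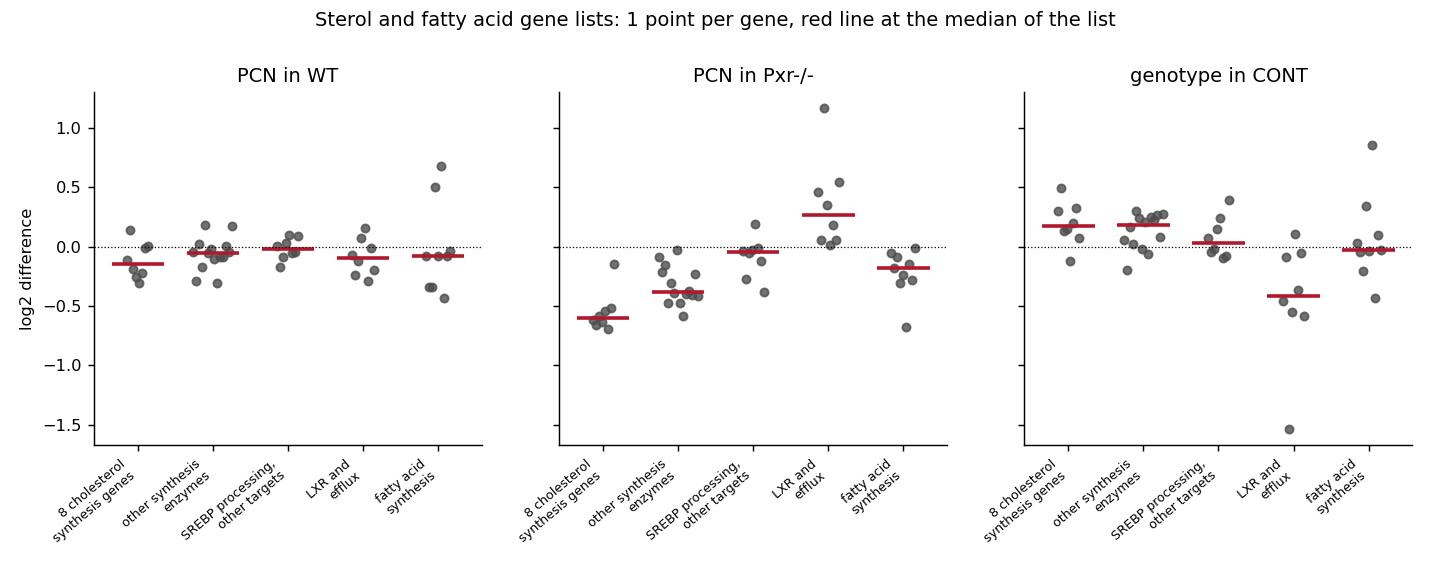
Log2 differences (y axis) of single genes in 5 gene lists (x axis), 1 point per gene with the median as a red line, for PCN in WT, PCN in Pxr-/- and genotype in CONT (Pxr-/- less WT). With PCN in Pxr-/- mice the medians are -0.60 for the 8 genes, -0.38 for the 14 other enzymes, -0.043 for SREBP processing, 0.27 for LXR and efflux genes and -0.18 for fatty acid synthesis.

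Across arrays the genes varied together to differing degrees. Group means were taken off, and each gene was compared with the mean of the other 7 over the 13 arrays outside the near-identical pairs. Pearson's r was 0.95 for Fdps, 0.91 for Hmgcs1, 0.89 for Idi1, 0.86 for Sqle, 0.82 for Lss, 0.74 for Cyp51, 0.69 for Insig1 and 0.57 for Srebf2. Without WT CONT 2 and Pxr-/- CONT 1, the arrays farthest from the median, it was 0.93 for Fdps, 0.82 for Hmgcs1, 0.77 for Idi1, 0.75 for Sqle, 0.65 for Insig1, 0.62 for Lss, 0.52 for Cyp51 and 0.43 for Srebf2. The closest pair was Idi1 and Fdps (r = 0.91), and the least alike were Cyp51 and Srebf2 (r = 0.15). The arrays share slides and wash baths, and these correlations are given as a description.

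Among the 24994 genes outside the 8, those most like their mean were ENSMUST00000119454, NAP002856-002, Eea1, Hsd17b7, Fam133b, Ranbp1, ENSMUST00000117940, Clspn, Pa2g4 and Mvd, with r of 0.94 to 0.96 over the 13 arrays. Without WT CONT 2 and Pxr-/- CONT 1 their r was 0.89 to 0.96. Hsd17b7 and Mvd are enzymes of the same route, and Mvk and Fdft1 were also among the 100 most alike genes. The median r of the 14 other enzymes was 0.78, against -0.044 over all genes, 0.024 for SREBP processing and other targets, -0.14 for LXR and efflux genes and 0.10 for fatty acid synthesis genes.

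The arrays were also put in order. By the mean of the 8 genes the highest arrays were Pxr-/- CONT 4 (12.94), WT CONT 2 (12.94) and Pxr-/- CONT 3 (12.86), all from bath 1, and the 4 lowest were all 4 Pxr-/- PCN arrays (11.97 to 12.21). The highest of these 4, Pxr-/- PCN 2 (12.21), forms a near-identical pair with WT PCN 4 (12.26), the next array in the order. Pxr-/- CONT 4 was among the 4 highest arrays in 8 of 8 genes, and Pxr-/- PCN 4 among the 4 lowest in 8 of 8. Pxr-/- CONT 1 (12.30) stood below the other 4 Pxr-/- CONT arrays (12.52 to 12.94), and WT CONT 2 stood above the other 3 WT CONT arrays (12.27 to 12.42).

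**Figure D4:**
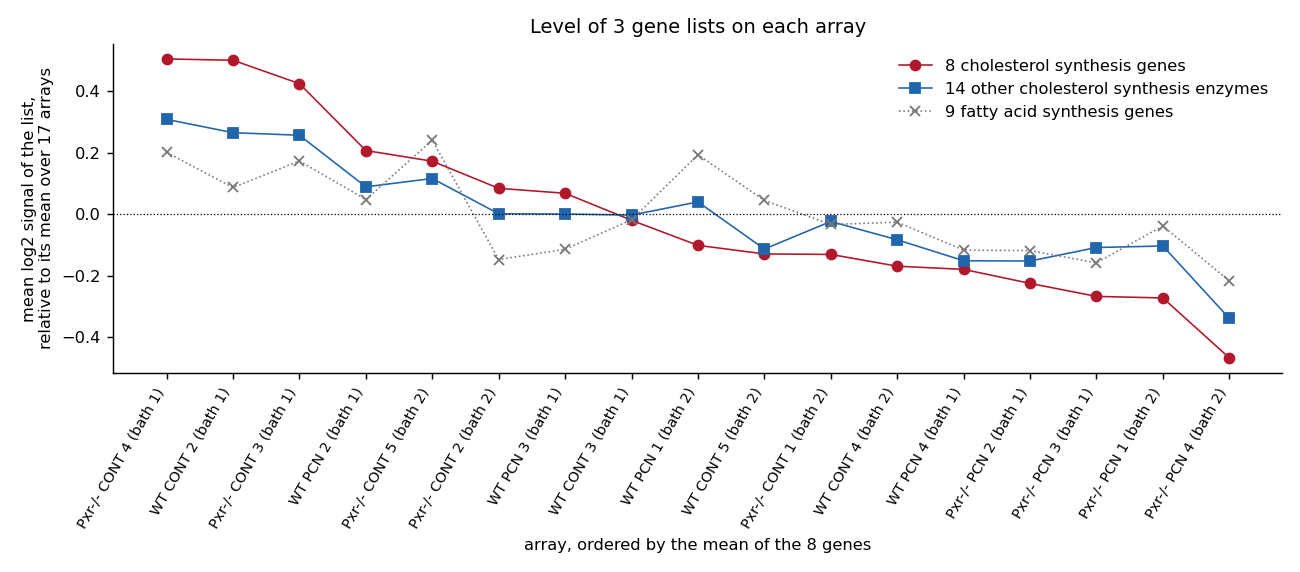
Mean log2 signal of the 8 cholesterol synthesis genes, of the 14 other enzymes and of 9 fatty acid synthesis genes on each array, relative to the mean of the list over all 17 arrays (y axis), with arrays ordered by the 8 genes and their wash bath in brackets (x axis). The 4 Pxr-/- PCN arrays close the order, with means of the 8 genes of 11.97 to 12.21 before centring, and the highest are Pxr-/- CONT 4 and WT CONT 2 at 12.94. WT PCN 4, near-identical to Pxr-/- PCN 2, stands next to the Pxr-/- PCN arrays at 12.26.

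Markers of the muscle layer and its nerves were also lower with PCN in Pxr-/- mice. All 6 smooth muscle markers had a lower mean (median log2 difference -0.41, 4 of 6 at an unadjusted p under 0.05 where 3.95% of all probes were lower, 0 called), and the mean log2 signal of the list was 15.22 to 15.84 in Pxr-/- CONT, 14.96 to 15.44 in Pxr-/- PCN, 15.11 to 15.86 in WT CONT and 15.28 to 15.72 in WT PCN. All 6 enteric neuron markers were lower too (median -0.38, 4 of 6 at an unadjusted p under 0.05, 0 called), with list means of 10.17 to 10.70, 9.82 to 10.18, 10.17 to 10.45 and 10.23 to 10.58 in the same order of groups. Of the 7 colonocyte markers 5 were lower (median -0.21, list means of 14.86 to 15.23 in Pxr-/- CONT and 14.67 to 15.18 in Pxr-/- PCN), of the 6 goblet cell markers 5 were lower (median -0.20, list means of 17.19 to 17.35 and 16.92 to 17.31), and of the 6 proliferating crypt cell markers 0 were lower (median 0.17). Of the 6 adipocyte markers 5 were lower (median -0.64), with list means of 8.95 to 10.39 in Pxr-/- CONT and 7.82 to 9.03 in Pxr-/- PCN. All of the muscle and neuron markers were well above the background on every array. In the comparison of genotypes without PCN, 5 of 6 adipocyte markers were lower in Pxr-/- colon (median -1.02, 4 of 6 at an unadjusted p under 0.05 where 6.52% of all probes were lower, list means of 9.61 to 11.08 in WT CONT), and 6 of 6 liver markers (median -1.66, 0 at an unadjusted p under 0.05). Without the 4 near-identical arrays the medians with PCN in Pxr-/- mice were -0.44 for smooth muscle, -0.48 for enteric neurons and -0.79 for adipocyte markers. The part of these cells in the values of the cholesterol synthesis genes was not tested.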

How the data were processed

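Total RNA of the colon was labelled with Cy3 and hybridized to 1-colour Agilent mouse arrays. The files deposited by the authors hold the spot intensity of each array as read by Feature Extraction 10.10.1.1 and a log2 table of 36695 probes. Per the study's methods, which were written for liver arrays of this design, that log2 table was filtered, corrected for the wash bath and normalized with CrossNorm, which could not be repeated. Here, median intensities of 59305 spots that are not controls were taken as log2 after outlier spots were left out, quantile-normalized and averaged per probe, which forces all arrays to the same distribution. A probe was kept where 4 or more arrays read it well above background (38703 of 56605). Group and wash bath were the terms of 1 linear model over the 17 arrays (limma 3.58.1, R 4.3.3), with Benjamini-Hochberg adjustment over all probes and the authors' thresholds (FDR 0.05, 1.5-fold). Single genes were also compared by exact permutation (scipy 1.17.1). Arrays give no read depth, and the precision is limited by 4 or 5 arrays a group.

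The 8 genes, the gene and marker lists and the tests were chosen with earlier results of these data known. All 8 genes are named, with a value for each array for the 2 with the largest difference in each pairwise comparison. From the other sterol and fatty acid lists the 2 genes with the largest difference are named in PCN in WT, PCN in Pxr-/- and genotype in CONT, and beside them the 10 genes most like the 8. Scap, Mbtps1, Mbtps2, Insig2 and Mvk fall outside this rule and were named after their values were seen, and some genes that the rule names are not reported here. Probes of the other lists were named through RefSeq accessions (GRCm38.p6, 32994 probes matched), otherwise by the files. The fit was tested on simulated data. Alternatives were other scalings, filters, blocks for slide and replicate number, single arrays and the 4 near-identical arrays left out, and baths taken alone.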

Additional observations from a re-analysis of the deposited data

Results flagged for a closer look

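By Dixon's 95% criterion, a single array stood apart in 3 of the 32 groups of 4 or 5 arrays formed by the 8 genes. Chance gives about 1 in 20 in separate groups. These 32 share the same arrays and the genes vary together, so that rate is no measure here. The log2 signal of Sqle in WT CONT 2 was 14.34, against 13.56 to 13.67 in the other 3 arrays of its group. For Lss the same array was at 12.09, against 10.95 to 11.11. Insig1 in Pxr-/- CONT 4 was at 9.57, against 8.99 to 9.08.

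For Fdps every WT PCN array was above the mean of WT CONT and every Pxr-/- PCN array below the mean of Pxr-/- CONT. The difference of the 2 log2 differences was -0.80, which did not pass the threshold over all probes (limma adjusted p = 0.848) and was -0.82 without the 4 near-identical arrays.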

How the results depend on the processing

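None of the 8 genes was called in any comparison under any alternative, and the smallest adjusted p in limma over all of them was 0.0698 (Fdps, genotype in CONT) and 0.0763 (PCN in Pxr-/-), both with array weights. With PCN in Pxr-/- mice all 152 values under other settings and all 136 with a single array left out kept their sign. The value of Lss ranged from -1.12 within bath 1 to -0.33 within bath 2, that of Hmgcs1 from -0.78 to -0.39 and that of Srebf2 from -0.23 to -0.043. With PCN in WT mice, 16 of 152 values changed sign. Without the 4 near-identical arrays, and without both near-identical WT PCN arrays alone, Hmgcs1 was at 0.033 and Sqle at 0.042. Bath 2 held 1 WT PCN array, WT PCN 1, and 2 WT CONT arrays, and bath 1 held 3 and 2. The bath 2 values of WT mice thus rest on a single WT PCN array. Within bath 2 the values were 0.16 for Hmgcs1, 0.10 for Sqle, 0.053 for Idi1 and 0.035 for Insig1, and within bath 1 they were 0.0072 for Cyp51 and -0.089 for Srebf2. Sqle was at 0.0105 with the processed signal, at 0.0106 with slide as a fixed block, and at 0.053 without the bath term. Srebf2 was at -0.038 with array weights and at -0.040 with the mean of its probes. With single arrays left out, Sqle ranged from -0.12 (without WT CONT 3) to 0.16 (without WT CONT 2) and Srebf2 from -0.041 (without WT PCN 1) to 0.074 (without WT PCN 4). Between genotypes without PCN, the mean of all probes of a gene gave -0.27 for Hmgcs1 and -0.11 for Srebf2. The cause of these changes was not tested.

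The number of probes called over the whole array, which is the background of these counts, moved more. With PCN in Pxr-/- mice it was 2 with all arrays, 26 without WT PCN 3, 4 without WT PCN 4, 0 to 2 without any other single array, 20 in a fit on the Pxr-/- groups alone and 29 without both near-identical WT PCN arrays, and with PCN in WT mice it was 0 with all arrays, 18 without WT PCN 3, 0 without any other single array and 39 without both. Between genotypes without PCN it was 0, 1 without Pxr-/- CONT 2, 2 without WT PCN 1 and 391 with array weights. For the interaction it was 0, and 1 without WT PCN 4. Between genotypes with PCN it was 0, and 15 without both near-identical WT PCN arrays. A fit on the groups of the contrast alone does not apply to the interaction. The replicate numbers did not pair the arrays: the correlation of 22 same-numbered pairs ran from -0.31 to 0.50, and 3 of 17 arrays correlated best with their own number. With the replicate block Srebf2 with PCN in WT mice was at -0.000287, 0 of the 8 genes were called in any comparison, and with PCN in Pxr-/- mice 0 probes were called.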
